A study of Mus musculus with 6 samples.

Results

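Small RNAs assigned to 2 nuclear tRNAs of the mouse are described here: mature-tRNA-Phe-GAA (tRNA-Phe below), which decodes the phenylalanine codons, and mature-tRNA-Trp-CCA (tRNA-Trp below), which decodes the tryptophan codon. The libraries were made from primary, wild type smooth muscle cells of the mouse pulmonary artery, the vessel that carries blood into the lung. The hypoxia group was held at 3% oxygen for 24 hours, and the normoxia group was grown in standard culture. Each group held 3 replicates that the design text calls biological, and neither a shared animal nor a shared day is stated for libraries that carry the same number. In Pandora-seq, enzymes first remove RNA modifications that hinder adapter ligation and reverse transcription. The comparison asks which tRNA-derived small RNAs differ after hypoxia.

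A sequence was taken as a member where every annotation it carries names mature nuclear tRNA-Phe or mature nuclear tRNA-Trp. This gave 1553 of 38798 sequences of 15 to 45 nt, 606 from tRNA-Phe and 947 from tRNA-Trp. They held 20582 and 139644 counts over all 6 libraries. Over the whole table, hypoxia replicates 1, 2 and 3 summed to 510519, 2563749 and 1713960 counts, against 330787, 2217965 and 1629726 for normoxia replicates 1, 2 and 3. Values below are given in the same order of replicates, and CPM is counts scaled to a total of 1000000 per library. The table holds sequences assigned to tRNAs alone, so that the cell type could not be checked against marker genes. Fewer cells and less RNA per cell cannot be told apart in such bulk libraries.

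A tRNA is aminoacylated on the CCA tail that is added to its 3' end after transcription. Cuts in the D loop, the anticodon loop or the T loop give short 5' fragments, longer 5' pieces and 3' fragments. In mammals tRNA-Phe carries a wybutosine-type base right after its anticodon, and the anticodon loops of tRNA-Phe and tRNA-Trp are both 2'-O-methylated by the methyltransferase FTSJ1. Modified bases of this kind can stop reverse transcription.

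The mature sequences were pieced together from the longest 5' and 3' fragments in the data and are shown because all positions below refer to them. Capitals mark the anticodon. Both tRNAs have several gene copies and the reads differ at single bases, so the joined form is one of several and no fragment was assigned to a single gene.
tRNA-Phe-GAA: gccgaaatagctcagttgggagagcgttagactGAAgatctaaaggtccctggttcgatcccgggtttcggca
tRNA-Trp-CCA: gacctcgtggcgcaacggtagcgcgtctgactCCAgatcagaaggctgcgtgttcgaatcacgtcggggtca

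The tRNA-Phe sequence has 73 encoded bases with the anticodon at positions 34 to 36, and the tail makes it 76 bases long. The tRNA-Trp sequence has 72 encoded bases with the anticodon at positions 33 to 35. The joined fragments overlapped by 12 and 17 bases. These lengths are those of the genes in RefSeq, which lists 7 genes for tRNA-Phe and 8 for tRNA-Trp on GRCm38, the assembly of mm10. The tRNA-Phe genes are n-TFgaa1 at chr13:21882885-21882957, n-TFgaa2 at chr19:12008545-12008617, n-TFgaa3 at chr10:80248964-80249036, n-TFgaa4 at chr13:21161405-21161477, n-TFgaa5 at chr14:118089525-118089597, n-TFgaa6 at chr19:12002236-12002308 and n-TFgaa7 at chr5:125406055-125406127. The tRNA-Trp genes are n-TWcca1 at chr10:23777083-23777154, n-TWcca2 at chr10:91181412-91181483, n-TWcca3 at chr13:23498106-23498177, n-TWcca4 at chr13:23506519-23506590, n-TWcca5 at chr11:61407916-61407987, n-TWcca6 at chr11:69063495-69063566, n-TWcca7 at chr11:69041826-69041897 and n-TWcca8 at chr11:62746015-62746086. All 1553 members could be placed on the joined sequences with at most 3 mismatches. Exact matches made up 90.6% of the tRNA-Phe counts and 73.0% of the tRNA-Trp counts.

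The fragments that carry the results are shown next, with their first and last position. Capitals mark anticodon bases and the CCA tail, and G56A is a base that differs from the joined sequence, whose base comes first.
Phe 1-19: gccgaaatagctcagttgg
Phe 1-20: gccgaaatagctcagttggg
Phe 42-56: aaaggtccctggttc
Phe 42-71: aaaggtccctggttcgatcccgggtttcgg
Phe 42-73: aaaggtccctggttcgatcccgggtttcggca
Phe 42-76: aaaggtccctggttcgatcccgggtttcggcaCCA
Phe 44-76: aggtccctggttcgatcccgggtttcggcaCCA
Trp 1-18: gacctcgtggcgcaacgg
Trp 28-44: tgactCCAgatcagaag
Trp 28-45: tgactCCAgatcagaagg
Trp 29-45: gactCCAgatcagaagg
Trp 30-45: actCCAgatcagaagg
Trp 31-45: ctCCAgatcagaagg
Trp 33-55: CCAgatcagaaggctgcgtgttc
Trp 56-71, G56A: aaatcacgtcggggtc
Trp 56-72, G56A: aaatcacgtcggggtca
The tRNA-Phe fragments of the first 2 lines end in the D loop, and the others begin at or beyond position 42, 3' of the anticodon loop. The tRNA-Trp fragments fall into a D-loop end, a ladder that ends at position 45 with the anticodon inside, a piece that stops 1 base short of that end, a piece from the anticodon to the T loop, and short pieces of the last bases.

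Before the groups are compared, the libraries numbered 1 need to be described. They were the smallest of the 6 and held far more tRNA-Phe. The tRNA-Phe fragments had 16168 CPM in hypoxia replicate 1 and 14129.9 CPM in normoxia replicate 1, against 458.3 and 884.5 CPM in the other hypoxia libraries and 1269 and 1318 CPM in the other normoxia libraries. The tRNA-Trp fragments of these libraries differed in make-up more than in sum, with 16.8% and 14.2% of their counts at the 5' end in hypoxia 1 and normoxia 1, against 73.5% to 80.8% in the other 4 libraries. Of the members, 268 tRNA-Phe and 330 tRNA-Trp sequences were found in the libraries numbered 1 alone. Results are therefore also given per same-numbered pair, with the replicate number as a term in the model (the replicate block), and without replicate 1. A block fit that leaves out a replicate has 2 libraries a group and almost no spread of its own left to estimate. Its p-values rest in large part on dispersion shared across features, and they do not measure the spread between replicates. For replicates 2 and 3 alone, deviations from the group means correlated at -0.02, so that their numbers were not shown to mark pairs. The share of the split between the libraries numbered 1 and the rest in each result was not tested beyond these values.

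Fragments of tRNA-Phe summed to 8254, 1175 and 1516 counts in the hypoxia libraries and to 4674, 2815 and 2148 in the normoxia libraries. In CPM the hypoxia value was 1.14, 0.361 and 0.671 times that of the normoxia library of the same number, so that pairs 2 and 3 were lower in hypoxia and pair 1 was not. The means were 5837 ± 8949 CPM in hypoxia and 5572 ± 7411 CPM in normoxia (SD, n = 3 each; exact permutation test, two-sided, p = 1, smallest possible 0.1). With counts summed for each tRNA, edgeR's quasi-likelihood test gave a log2 change of 0.21 (SE 1.29; Benjamini-Hochberg adjusted p = 0.997), and it called 0 of 112 tRNA sources (0%). With the replicate block the value was -0.53 (SE 0.33; edgeR, adjusted p = 0.523), again with 0 sources called. In the block fit without replicate 1 it was -1.04 (SE 0.25; edgeR, adjusted p = 0.0216), where 10 of 112 sources passed, all lower in hypoxia (8.93%). The direction turned with single libraries in the fit of the groups alone: the log2 change was -2.21 without hypoxia replicate 1 and 1.46 without normoxia replicate 1.

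**Figure D1:**
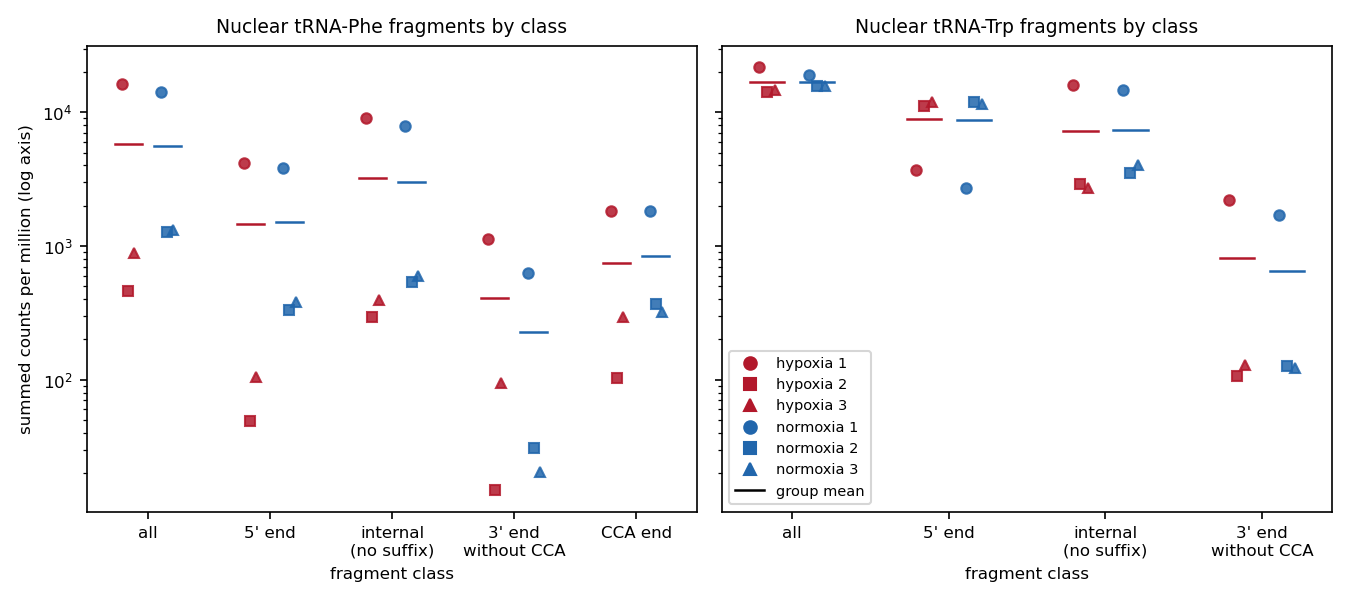
Summed CPM (log axis) of tRNA-Phe and tRNA-Trp fragments in each class, with hypoxia libraries (red) left of normoxia libraries (blue), marker shapes for replicates 1 to 3 and lines for group means. For tRNA-Phe the libraries numbered 1 lie far above the rest in every class and set the means, and for tRNA-Trp they lie below the rest at the 5' end and above them in the other classes.

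Fragments from the 5' end of tRNA-Phe were far lower in hypoxia in pairs 2 and 3 and not in pair 1. The 16 sequences of this class, which all start at position 1, summed to 4202, 48.8 and 105.0 CPM in hypoxia and to 3830, 329.1 and 379.2 CPM in normoxia. The ratios of hypoxia to normoxia were 1.10, 0.148 and 0.277, so that pair 1 was about level. Most of the counts belong to the D-loop fragments shown above. The group means were 1452 ± 2382 and 1513 ± 2007 CPM for hypoxia and normoxia (SD, n = 3 each; exact permutation p = 1). Among 276 sums by source and class, edgeR gave a log2 change of -0.18 (SE 1.47; adjusted p = 0.999) and called none (0%). With the replicate block the value was -1.45 (SE 0.56; edgeR, unadjusted p = 0.0412, adjusted p = 0.425). Without replicate 1 it was -2.28 (SE 0.38; edgeR, adjusted p = 7.67e-07), in a fit of 2 libraries a group that called 18 of 269 sums (6.69%), 12 of them lower in hypoxia (4.46%). That small p rests in large part on dispersion shared across all sums, not on replicates of this class. In the groups-alone fit, leaving out hypoxia replicate 1 gave -3.40, and the sign turned without hypoxia replicate 2 (0.24), hypoxia replicate 3 (0.25) or normoxia replicate 1 (1.05).

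One fragment, positions 1 to 19, made up most of this class. It had 1772, 66 and 148 counts in hypoxia, against 1060, 588 and 454 counts in normoxia, which is 3471, 25.7 and 86.3 CPM against 3204, 265.1 and 278.6 CPM. Replicates 2 and 3 of hypoxia were the lowest of the 6 libraries, while hypoxia replicate 1 was the highest, so the groups overlap. The log2 change was -0.10 (SE 1.52) with the groups alone and -1.61 (SE 0.44; edgeR, unadjusted p = 0.001, adjusted p = 0.2) with the replicate block. It was -2.55 in the block fit without replicate 1 (edgeR, adjusted p = 0.000114), -0.73 without replicate 2 and -1.52 without replicate 3 (edgeR, adjusted p = 0.00509). The fit without replicate 3 called 21 of 8114 sequences (0.259%), 8 of them lower in hypoxia (0.0986%). Its neighbour of positions 1 to 20 had 263, 29 and 25 counts in hypoxia, against 134, 120 and 76 in normoxia, with log2 changes of 0.03 alone and -1.15 (SE 0.46) with the block. The last base of either lies in the D loop, far 5' of the anticodon.

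The class also took a smaller share of the tRNA-Phe counts in hypoxia in pairs 2 and 3, a measure that no library scaling enters. The share was 26.0%, 10.6% and 11.9% in hypoxia and 27.1%, 25.9% and 28.8% in normoxia. All 3 normoxia libraries and hypoxia replicate 1 lie close together, and hypoxia replicates 2 and 3 lie apart from them, with Wilson 95% intervals of 9.0% to 12.5% and 10.3% to 13.6%, against 24.3% to 27.6% in normoxia 2 and 26.9% to 30.7% in normoxia 3. These intervals cover counting error only. The means were 16.2% ± 8.53 in hypoxia and 27.3% ± 1.43 in normoxia (SD, n = 3 each; exact permutation p = 0.2, adjusted p = 0.467 over 7 share comparisons). The share was lower in hypoxia in 3 of 3 pairs, though by little in pair 1. No share in this family can pass 0.05 with 3 libraries a group.

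**Figure D2:**
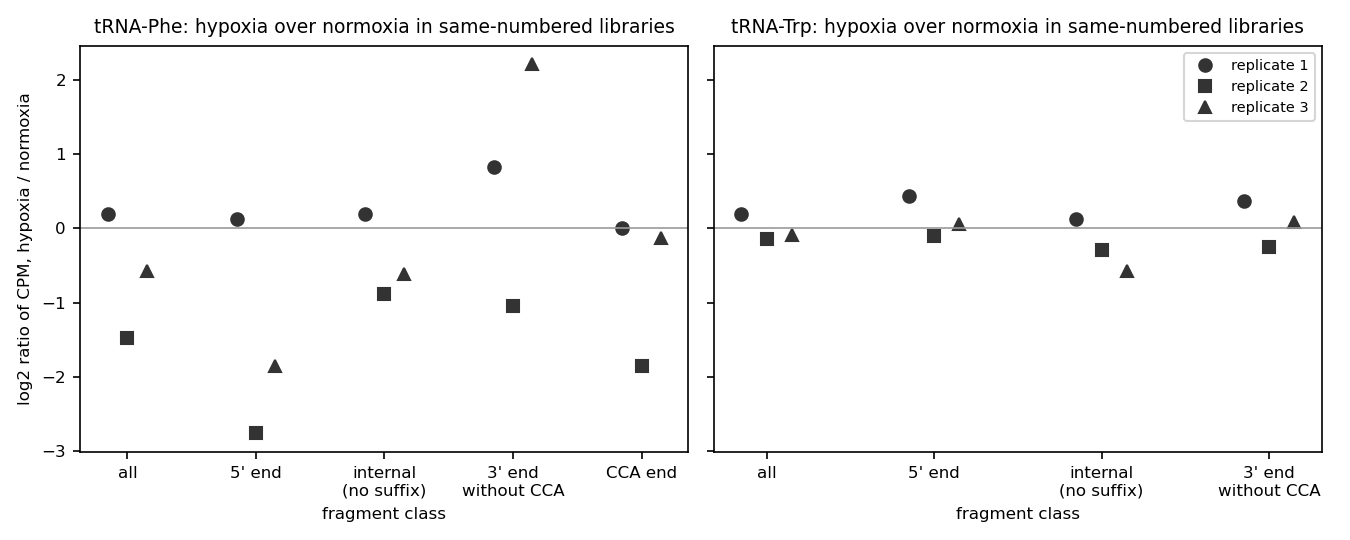
Log2 ratio of summed CPM, hypoxia over normoxia, in same-numbered libraries, for each fragment class of tRNA-Phe and tRNA-Trp (marker shapes for replicates 1 to 3). At the 5' end of tRNA-Phe, pairs 2 and 3 lie well below 0 and pair 1 slightly above it, while for tRNA-Trp the ratios of all classes lie between 0.672 and 1.36, that is near 0 on this axis.

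Fragments from inside tRNA-Phe or with an incomplete tail carry no suffix in the table and are called internal here. These 488 sequences, 71 of which end in the first C or CC of the tail, summed to 9005, 292.2 and 393.2 CPM in hypoxia and to 7848, 539.7 and 599.5 CPM in normoxia. The pair ratios were 1.15, 0.541 and 0.656, with pairs 2 and 3 closer to 1 than at the 5' end. The log2 change was 0.08 (SE 1.29) with the groups alone, -0.40 (SE 0.24) with the block and -0.72 without replicate 1 (edgeR, adjusted p = 0.0732), none of which passed. Position 42, in the 3' strand of the anticodon stem, was the most used start apart from position 1, with a mean of 19.8% of tRNA-Phe counts against 21.7%.

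Several of the most abundant internal and 3' fragments share that start and differ in where they end. The 15-nt fragment of positions 42 to 56 stops in the T loop, and it had 677.7, 34.7 and 91.6 CPM in hypoxia and 486.7, 140.2 and 236.8 CPM in normoxia. It was higher in hypoxia in pair 1 and lower in pairs 2 and 3, with log2 changes of -0.28 (SE 0.91) alone, -0.99 (SE 0.41) with the block and -1.73 without replicate 1 (edgeR, adjusted p = 0.0301). The longer fragment of positions 42 to 71 had 589, 14 and 14 counts in hypoxia, against 204, 14 and 10 in normoxia, so that 1 library of each group held most of its reads. Its log2 changes of 0.96 (SE 2.06) alone and 0.48 with the block did not pass.

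Fragments that end on the last encoded base of tRNA-Phe, without the tail, differed in CPM between the pairs in both directions. The 42 sequences summed to 1126, 14.8 and 93.9 CPM in hypoxia and to 631.8, 30.7 and 20.2 CPM in normoxia, with pair ratios of 1.78, 0.483 and 4.64. Pairs 1 and 3 were higher in hypoxia and pair 2 was lower, and the means of 411.7 ± 620 and 227.6 ± 350 CPM for hypoxia and normoxia did not differ beyond the spread (SD, n = 3 each; exact permutation p = 0.7). The log2 changes were 0.93 (SE 1.54) alone and 0.74 (SE 0.62) with the block (edgeR, adjusted p = 0.592). In block fits of 2 pairs the value was 0.62 without replicate 1, 1.54 without replicate 2 (SE 0.43; edgeR, adjusted p = 0.0203) and -0.038 without replicate 3. The fit without replicate 2 called 5 of 286 sums (1.75%), 3 of them higher in hypoxia (1.05%). As a share of tRNA-Phe counts the class held 6.97%, 3.23% and 10.6% in hypoxia, against 4.47%, 2.42% and 1.54% in normoxia. The share was higher in hypoxia in 3 of 3 pairs, while the groups overlap (means 6.94% ± 3.69 and 2.81% ± 1.51, n = 3 each; exact permutation p = 0.2). Its most abundant member, positions 42 to 73, had 143, 5 and 2 counts in hypoxia, against 41, 9 and 11 in normoxia, higher in pair 1 and lower in the others. Its neighbour of positions 39 to 73 had 79, 14 and 8 counts in hypoxia, against 39, 15 and 0 in normoxia, with log2 changes of 0.50 alone and 0.66 with the block.

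Fragments with the complete tail can stem from tRNA that was finished and ready for charging. The 60 tRNA-Phe sequences of this class summed to 1835, 102.6 and 292.3 CPM in hypoxia and to 1820, 369.7 and 319.1 CPM in normoxia. Only pair 2 differed by much, with ratios of 1.01, 0.277 and 0.916, and the log2 changes of -0.25 (SE 0.85) alone, -0.60 (SE 0.41) with the block and -0.96 without replicate 1 (edgeR, adjusted p = 0.0598) did not pass. The fragment of positions 44 to 76 had 80, 14 and 21 counts in hypoxia, against 60, 32 and 24 in normoxia, and that of positions 42 to 76 had 102, 22 and 20 against 42, 41 and 11. In both, the groups overlap. Some of the shortest CCA ends of tRNA-Phe are also assigned to tRNA-Ser-GGA and are no members. As a share of tRNA-Phe counts the class held 11.4%, 22.4% and 33.0% in hypoxia and 12.9%, 29.1% and 24.2% in normoxia (means 22.3% ± 10.8 and 22.1% ± 8.33, n = 3 each; exact permutation p = 1, adjusted p = 1). The difference of 0.19 points turned to -3.12 points when the shared sequences were added.

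In the fit of the groups alone, the tRNA-Phe fragments of smallest p in each direction were CCA ends as well, and rare ones.
Phe 48-76, G57A (G in the joined sequence): ccctggttcaatcccgggtttcggcaCCA
Phe 41-76: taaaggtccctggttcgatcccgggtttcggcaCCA
The first had 12, 24 and 5 counts in hypoxia, against 5, 2 and 3 in normoxia, with a log2 change of 1.34 (SE 1.16). The other had 26, 12 and 8 counts in hypoxia, against 20, 30 and 55 in normoxia, with a log2 change of -1.05 (SE 0.97) and of -1.50 with the block. In both the groups overlap in CPM, and neither passed in edgeR's test. Without single libraries the change of the first ran from 0.80 (without hypoxia replicate 1) to 2.63 (without normoxia replicate 1), and that of the other from -2.57 (without hypoxia replicate 1) to -0.79 (without hypoxia replicate 2).

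In the lengths of tRNA-Phe fragments hypoxia and normoxia did not overlap. Those of 30 nt or longer held 33.0%, 31.6% and 32.7% of the counts in hypoxia, against 29.9%, 22.5% and 26.4% in normoxia. Every hypoxia library was above every normoxia library, at 32.4% ± 0.751 and 26.3% ± 3.70 (SD, n = 3 each; exact permutation p = 0.1, the smallest possible, adjusted p = 0.467). Fragments of 15 to 19 nt, a class set after the values were seen, held 46.7%, 39.2% and 39.0% in hypoxia and 50.6%, 55.8% and 55.3% in normoxia. The groups again did not overlap (exact permutation p = 0.1). The median length was 20, 21 and 23 nt in hypoxia and 19 nt in all 3 normoxia libraries. The 19-nt 5' fragment belongs to the shorter class, so these shares and its counts are not separate measures. The direction at 30 nt or longer was not particular to tRNA-Phe. In tRNA-Trp that share was 20.9%, 1.34% and 1.86% in hypoxia, against 13.2%, 0.769% and 0.739% in normoxia. It was higher in 3 of 3 pairs, and the groups overlap (exact permutation p = 0.5, adjusted p = 0.583). In the other nuclear mature tRNAs pooled, it was 20.7%, 17.75% and 19.4% in hypoxia, against 19.9%, 17.69% and 14.8% in normoxia.

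**Figure D3:**
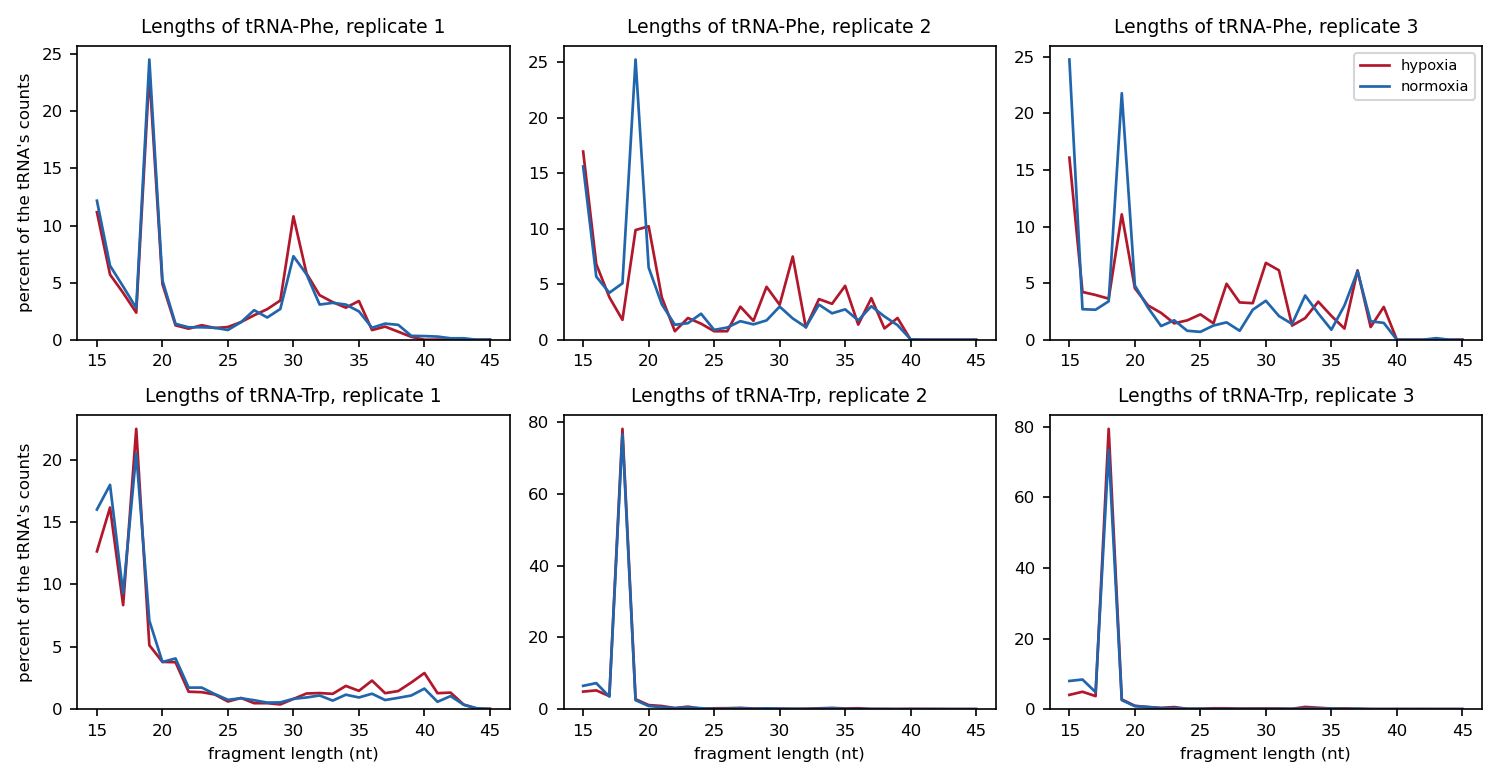
Share of each tRNA's counts by fragment length (nt) in replicates 1, 2 and 3, with tRNA-Phe above tRNA-Trp, hypoxia in red and normoxia in blue. For tRNA-Phe the peak at 19 nt is lower in hypoxia than in normoxia in replicates 2 and 3, and for tRNA-Trp the peak at 18 nt dominates both groups in replicates 2 and 3.

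Few tRNA-Phe fragments crossed the anticodon. Fragments that hold all of it made up 0.242%, 1.96% and 0.726% of the counts in hypoxia, against 4.92%, 2.81% and 1.49% in normoxia. The share was lower in hypoxia in 3 of 3 pairs, and the groups overlap (means 0.975% ± 0.884 and 3.07% ± 1.73, n = 3 each; exact permutation p = 0.2, adjusted p = 0.467). The difference of -2.10 points was -2.89 points without normoxia replicate 3 and -1.17 points without normoxia replicate 1. Fragments that cover position 37, the base after the anticodon, held 0.267%, 2.81% and 0.726% in hypoxia and 5.61%, 2.95% and 1.49% in normoxia. In tRNA-Trp the same site is position 36, and 28.8%, 12.0% and 10.6% of the counts covered it in hypoxia, against 25.8%, 15.3% and 17.4% in normoxia. In each of the 6 libraries a larger share of tRNA-Trp than of tRNA-Phe counts covered that base. No modified base was measured here, and a link between modification and this coverage was not tested.

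**Figure D4:**
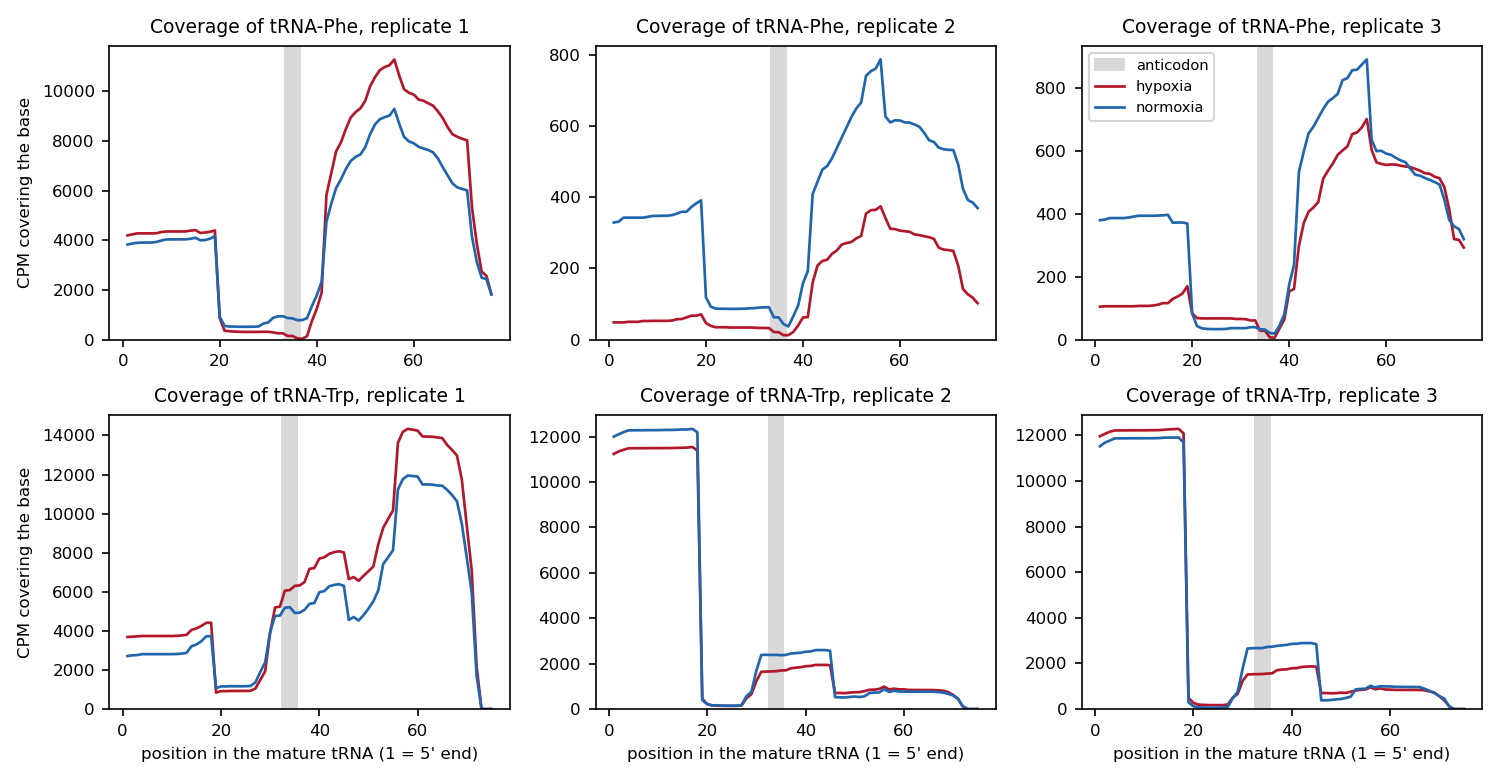
CPM of fragments that cover each base of tRNA-Phe (above) and tRNA-Trp (below) in replicates 1, 2 and 3, with hypoxia in red, normoxia in blue and the anticodon shaded. Coverage of tRNA-Phe falls at position 20, well before the anticodon, stays low through the anticodon and is high again by position 42. Its 5' block is lower in hypoxia in replicates 2 and 3. In replicates 2 and 3 tRNA-Trp has a separate block of coverage at its anticodon that is lower in hypoxia, while in replicate 1 coverage rises on towards the 3' end.

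Fragments of tRNA-Trp were about level between the groups. They summed to 21939, 14228 and 14805 CPM in hypoxia and to 19127, 15647 and 15684 CPM in normoxia, with pair ratios of 1.15, 0.909 and 0.944. The means were 16990 ± 4295 and 16819 ± 1999 CPM for hypoxia and normoxia (SD, n = 3 each; exact permutation p = 1). The log2 change was 0.03 (SE 0.30) with the groups alone, 0.07 (SE 0.17) with the block and -0.13 without replicate 1 (edgeR, adjusted p = 0.749). The largest class outside the libraries numbered 1 was the 5' end, of 36 sequences, with 3688, 11236 and 11960 CPM in hypoxia and 2712, 11998 and 11523 CPM in normoxia. Its pair ratios of 1.36, 0.937 and 1.04 stand on both sides of 1, and the log2 changes were 0.03 (SE 1.0) alone and 0.17 (SE 0.16) with the block (edgeR, adjusted p = 0.634).

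That class was mostly 1 fragment, positions 1 to 18, which ends in the D loop as the tRNA-Phe fragment does. It had 1156, 20908 and 14717 counts in hypoxia, against 542, 19890 and 14332 in normoxia, or 2264, 8155 and 8587 CPM against 1639, 8968 and 8794 CPM. The groups lie on top of each other, with log2 changes of -0.08 (SE 0.94) alone and 0.09 with the block. Unlike the 5' fragment of tRNA-Phe, it was scarcer in the libraries numbered 1 than in the rest. The 5' class took 16.8%, 79.0% and 80.8% of tRNA-Trp counts in hypoxia, against 14.2%, 76.7% and 73.5% in normoxia, higher in hypoxia in 3 of 3 pairs (means 58.9% ± 36.4 and 54.8% ± 35.2; exact permutation p = 0.5, adjusted p = 0.583). Without hypoxia replicate 1 the difference of 4.08 points became 25.1 points, and without normoxia replicate 1 it became -16.2 points.

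Fragments from the anticodon stem or loop of tRNA-Trp to its variable loop had lower CPM in every hypoxia library than in any normoxia library. The comparison is too small to pass 0.05. The 18 sequences that end at position 45, all with the complete anticodon inside, summed to 1583, 1231 and 1169 CPM in hypoxia and to 1935, 2045 and 2461 CPM in normoxia. Every hypoxia library was below every normoxia library, with pair ratios of 0.818, 0.602 and 0.475 and means of 1327 ± 223 and 2147 ± 277 CPM (SD, n = 3 each; exact permutation p = 0.1, the smallest possible). The end at position 45 was picked after its values were seen, as the 1 of 56 start or end positions with at least 1% of either tRNA's counts at which the groups did not overlap (1.79%). A position picked for its lack of overlap must give this exact permutation p, and no omitted library can turn its sign. With libraries left out in turn, the difference of -819 CPM ran from -947 to -662 CPM, which is therefore no separate support. At this end the libraries numbered 1 lay within the range of the other 4. These CPM are scaled by library totals, while the fits used TMM factors. For counts per sequence the factors were 1.45, 0.853 and 0.816 in hypoxia and 1.51, 0.820 and 0.802 in normoxia. The lack of overlap holds for CPM by totals only.

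The ladder at this end has 4 main steps, which together held 97.5% of its counts. The step from position 31 had 479.9, 368.2 and 270.7 CPM in hypoxia and 547.2, 669.5 and 881.7 CPM in normoxia, with no overlap in CPM by library totals. The step from position 30 had 366.3, 388.5 and 428.8 CPM in hypoxia and 383.9, 787.7 and 920.4 CPM in normoxia, where hypoxia replicates 2 and 3 lie above normoxia replicate 1. The steps from positions 28 and 29 were also lower in hypoxia in 3 of 3 pairs, at 318.0 ± 42.2 against 376.7 ± 27.3 CPM and 186.3 ± 60.9 against 277.2 ± 98.7 CPM (SD, n = 3 each). The log2 changes with the groups alone were -0.27 (SE 0.47), -0.58 (SE 0.48), -0.92 (SE 0.63) and -1.03 (SE 0.54) for the starts at positions 28, 29, 30 and 31. None passed in edgeR's test, the smallest adjusted p with the block being 0.484 (start at position 31, log2 change -0.93, SE 0.33). These 4 share all of their last 15 bases and are not separate signals.

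Just beside this ladder lies the tRNA-Trp fragment with the smallest unadjusted p among those lower in hypoxia, positions 28 to 44. It had 4, 2 and 2 counts in hypoxia, against 9, 30 and 24 in normoxia, which is 7.84, 0.780 and 1.17 CPM against 27.2, 13.5 and 14.7 CPM. Every hypoxia library was below every normoxia library. The log2 change was -2.84 (SE 0.96; edgeR, unadjusted p = 0.0186, adjusted p = 1) alone and -3.09 (SE 1.01; edgeR, adjusted p = 0.423) with the block. The fragment with the smallest unadjusted p among those higher in hypoxia begins at the first base of the anticodon and ends at position 55. It had 16, 25 and 31 counts in hypoxia, against 4, 9 and 2 in normoxia, higher in 3 of 3 pairs, with a log2 change of 1.98 (SE 0.89; edgeR, unadjusted p = 0.0572). In share, fragments that hold the complete anticodon made up 20.4%, 10.8% and 9.42% of tRNA-Trp counts in hypoxia, against 20.2%, 14.6% and 16.8% in normoxia (exact permutation p = 0.4, adjusted p = 0.583). The difference of -3.66 points became -7.09 points without hypoxia replicate 1 and -1.6 points without hypoxia replicate 3.

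The internal class of tRNA-Trp as a whole, 844 sequences, had 16060.1, 2885 and 2716 CPM in hypoxia and 14713, 3523 and 4039 CPM in normoxia. Pairs 2 and 3 were lower in hypoxia, at ratios of 0.819 and 0.672, and pair 1 was at 1.09. The log2 changes were -0.10 (SE 0.54) alone, -0.21 (SE 0.17) with the block and -0.41 without replicate 1 (edgeR, adjusted p = 0.185). The 67 sequences that end on the last encoded base summed to 2190, 106.5 and 128.9 CPM in hypoxia and 1702, 126.7 and 121.5 CPM in normoxia, with log2 changes of 0.32 (SE 1.21) alone and 0.10 (SE 0.22) with the block. The fragment of positions 56 to 72 is the most abundant of them, at 296, 68 and 47 counts in hypoxia, against 112, 40 and 37 in normoxia. It was higher in hypoxia in 3 of 3 pairs, with a log2 change of 0.78 (SE 1.34). The fragment that lacks the last base, positions 56 to 71, had 768, 416 and 144 counts in hypoxia, against 442, 262 and 174 in normoxia and did not differ beyond the spread (log2 change 0.21, SE 1.13). That of positions 58 to 72 had 94, 84 and 73 counts in hypoxia, against 63, 85 and 78 in normoxia (log2 change -0.08).

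The table analysed here lists no tRNA-Trp sequence that runs past position 72, so it has no class with the CCA tail, while 131 of the 606 tRNA-Phe sequences run past the last encoded base. At 0 of 6327 counts in the shallowest library, normoxia replicate 1, 3 counts would be 0.0474% of tRNA-Trp. How reads with a tail were assigned is not given in the sources used here.

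Of the fragments, 63 from tRNA-Phe and 105 from tRNA-Trp passed the filter on low counts, with 69.3% and 92.2% of the counts, and 543 and 842 did not. With the groups alone, edgeR's test with Benjamini-Hochberg adjustment called none of them at 0.05, as it called 0 of all 6452 sequences tested (0%). At an unadjusted p under 0.05 were 0 tRNA-Phe fragments and 1 tRNA-Trp fragment, against 45 of all sequences (0.697%). DESeq2 and limma voom also called 0, with 0 and 1 tRNA-Phe fragments and 2 and 4 tRNA-Trp fragments at an unadjusted p under 0.05. Of all 6452 sequences, DESeq2 had 34 higher and 50 lower at that p, and limma voom 56 higher and 53 lower. With the replicate block 10 of 6452 passed (0.155%), none from these tRNAs. There, 9 tRNA-Phe fragments were lower and 1 higher at an unadjusted p under 0.05, where 2.98% of all sequences were lower and 3.41% higher, and tRNA-Trp had 6 lower and 8 higher. In that fit the median log2 change was -0.51 over the tRNA-Phe fragments, 43 of 63 below 0, against 0.05 over those of tRNA-Trp and 0.02 over all sequences. By class, 5 of 5 tRNA-Phe 5' fragments and 19 of 21 CCA ends were below 0, with 17 of 30 internal ones and 2 of 7 ends without the tail. Of all 6452 sequences, 3153 were below 0 in that fit. With the groups alone, 4 of 5 of the 5' fragments and 12 of 21 CCA ends were below 0, with 14 of 30 internal ones and 1 of 7 ends without the tail. Overlapping fragments come from the same tRNA and are not independent of each other.

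Counted by library, 0 tRNA-Phe fragments had groups that did not overlap, and in tRNA-Trp 2 were higher and 3 lower, against 2.32% and 2.51% of all sequences. Lower in hypoxia in 3 of 3 pairs were 12 of 63 tRNA-Phe fragments (19.05%) and 20 of 105 tRNA-Trp fragments (19.05%), with 13.4% of all sequences. Higher in all 3 were 4 (6.35%) and 17 (16.2%), with 15% of all sequences. In the block fit without replicate 1, which called 26 of 6498 sequences (0.4%), the members past the threshold were the tRNA-Phe fragments of positions 1 to 19 and 42 to 56, both lower (0.308% of all), and 1 tRNA-Trp fragment, higher (0.0923% of all). The tRNA-Trp one covers positions 20 to 34 and was chosen after its values were seen.
Trp 20-34: agcgcgtctgactCC
It ends inside the anticodon and had 43, 168 and 123 counts in hypoxia, against 31, 52 and 8 in normoxia, which is 84.2, 65.5 and 71.8 CPM against 93.7, 23.4 and 4.91 CPM. Normoxia replicate 1 was the highest of the 6 libraries and normoxia replicates 2 and 3 the lowest. The log2 change was 1.16 alone, 1.60 with the block and 2.47 without replicate 1 (edgeR, adjusted p = 0.0198).

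Set against each other, the 2 tRNAs differed in how much of each there was. For each tRNA-Trp count there were 0.737, 0.0322 and 0.0597 tRNA-Phe counts in hypoxia, against 0.739, 0.0811 and 0.0840 in normoxia. The ratio was nearly equal in pair 1 and lower in hypoxia in pairs 2 and 3, where the log2 ratio differed by -1.33 and -0.49. The log2 ratios averaged -3.15 ± 2.39 for hypoxia and -2.54 ± 1.83 for normoxia (SD, n = 3 each; exact permutation p = 0.5), so that an unequal change of the 2 tRNAs was not shown. Without hypoxia replicate 1 the difference of -0.61 became -1.97, and without normoxia replicate 1 it became 0.44.

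The make-up of tRNA-Phe fragments lay apart from that of the other nuclear mature tRNAs pooled in 6 of 6 libraries. These comparisons did not pass 0.05 after adjustment. The other tRNAs give 30162 sequences, whose counts were summed in each library, so that the abundant tRNAs weigh most. Sequences annotated to several nuclear tRNAs stay in this pool, while the tRNA-Phe sequences name no other tRNA. The annotation therefore enters the shares of the pool and of tRNA-Phe unequally. No other tRNA was compared singly, so where tRNA-Phe lies in their range is not shown. The 5' class held 21.7% ± 8.18 of tRNA-Phe counts and 50.4% ± 9.75 of the others' (SD, n = 6 libraries), lower in 6 of 6 libraries (exact sign-flip permutation test, p = 0.031, the smallest possible, adjusted p = 0.0521 over 5 comparisons). The CCA class held 22.2% ± 8.65 of tRNA-Phe counts and 4.59% ± 0.753 of the others', higher in 6 of 6 libraries (exact sign-flip p = 0.031, adjusted p = 0.0521). Fragments of 30 nt or longer made up 29.4% ± 4.13 of tRNA-Phe counts and 18.4% ± 2.13 of the others', again higher in 6 of 6 (exact sign-flip p = 0.031, adjusted p = 0.0521). For tRNA-Trp, the 5' class at 56.8% ± 32.1 was above the others in 4 of 6 libraries (exact sign-flip p = 0.5, adjusted p = 0.5), the 2 below being those numbered 1. Its share of 30 nt or longer, 6.48% ± 8.58, was below theirs in 5 of 6 libraries (exact sign-flip p = 0.0625, adjusted p = 0.0781). Its CCA class is empty, as given above, and was not tested.

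**Figure D5:**
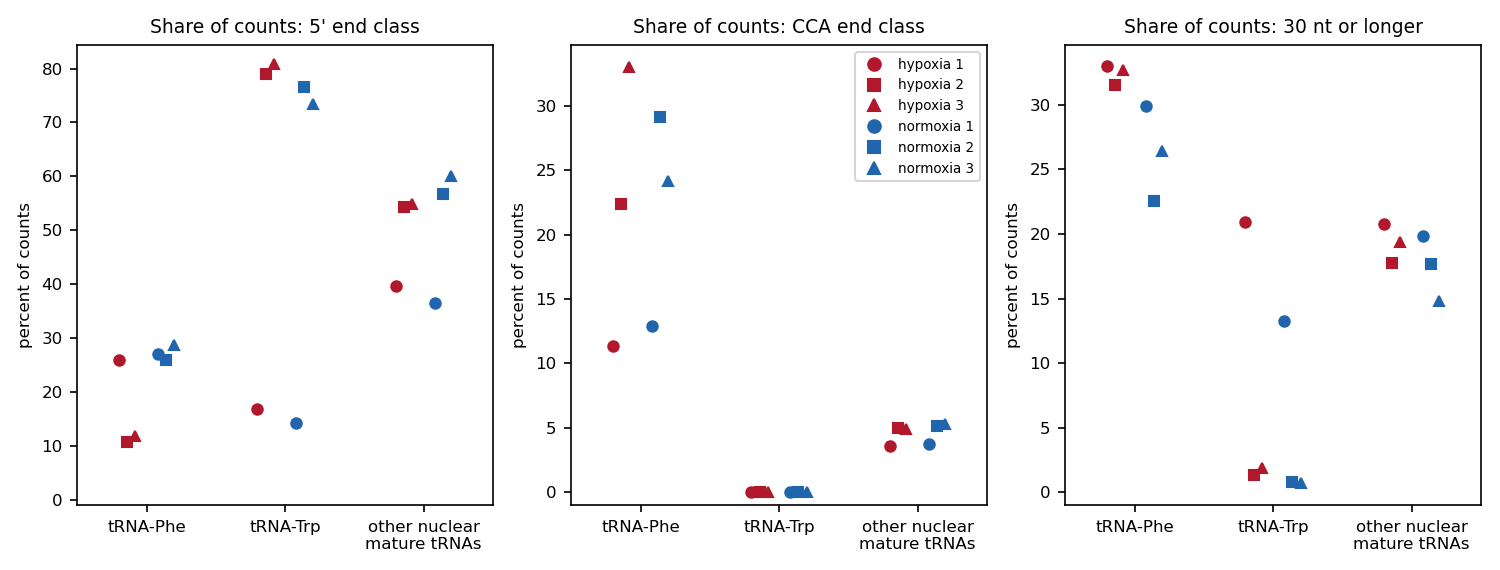
Percent of counts in the 5' class, in the CCA class and at 30 nt or longer, for tRNA-Phe, tRNA-Trp and the other nuclear mature tRNAs pooled, with hypoxia libraries (red) left of normoxia libraries (blue) and marker shapes for replicates 1 to 3. tRNA-Phe lies below the pool of the other tRNAs in 5' fragments and above it in CCA ends and long fragments in 6 of 6 libraries, and tRNA-Trp splits into the libraries numbered 1 and the other 4.

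Forms of tRNA-Trp that differ at single bases could be followed through sites where at least 5% of the reads carried another base. Positions count from 1 at the 5' end of the joined sequence, whose base is given first. At the 5' end 3 forms of the 18-nt fragment are shown, and near the 3' end 2 forms of the 16-nt fragment, with capitals at the sites that differ.
Trp 1-18, joined form: gAcctcgtggcgcaaCgg
Trp 1-18, C16T: gAcctcgtggcgcaaTgg
Trp 1-18, A2G: gGcctcgtggcgcaaCgg
Trp 56-71, G56A: AaAtcacgtcggggtc
Trp 56-71, G56A and A58G: AaGtcacgtcggggtc
The C16T form had 1034, 1013 and 1610 CPM in hypoxia and 776.9, 1257 and 987.3 CPM in normoxia, and the A2G form had 286.0, 1549 and 1176 CPM against 214.6, 1317 and 1301 CPM. Neither form separated the groups. Over all fragments that cover position 16, C16T was carried by 27.2%, 9.25% and 13.9% of counts in hypoxia, against 25.8%, 10.9% and 8.82% in normoxia, so that the libraries numbered 1 of both groups held the most.

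At the other sites the groups overlapped as well. In tRNA-Trp, A2G was carried by 11.1% ± 3.22 of counts in hypoxia, against 10.6% ± 2.09 in normoxia (exact permutation p = 1), C46T by 50.0% ± 13.3 and 48.8% ± 12.2 (exact p = 1), G56A by 68.1% ± 5.07 and 68.3% ± 5.44 (exact p = 0.9) and A58G by 20.5% ± 7.84 and 22.8% ± 6.13 (exact p = 0.7; SD, n = 3 each). A58G was lower in hypoxia in 3 of 3 pairs. The one such site in tRNA-Phe, G57A in the T loop, was carried by 11.5% ± 4.33 in hypoxia and 11.6% ± 1.82 in normoxia (exact permutation p = 0.9). Whether these bases stem from different gene copies was not tested.

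For comparison, the other tRNAs of aromatic amino acids were read from the same sums. Nuclear tRNA-Tyr-GTA had 23341 ± 1554 CPM in hypoxia and 24722 ± 1968 CPM in normoxia (SD, n = 3 each), with log2 changes of -0.07 alone and 0.00 with the block. Mitochondrial tRNA-Phe, which serves translation inside mitochondria, had 61.1 ± 67.6 and 119.2 ± 86.7 CPM for hypoxia and normoxia, lower in hypoxia in 3 of 3 pairs, with log2 changes of -0.98 alone and -1.21 with the block (edgeR, adjusted p = 0.307). Mitochondrial tRNA-Trp had 1042 ± 1252 and 1017 ± 1211 CPM, and mitochondrial tRNA-Tyr 977.1 ± 182 and 1384 ± 556 CPM. Of these 4 sources, 0 passed edgeR's adjusted threshold with the groups alone or with the block, as 0 of all 112 did. In the block fit without replicate 1, where 8.93% of sources were called lower, mitochondrial tRNA-Tyr passed at -0.93 (SE 0.21; edgeR, adjusted p = 0.0169). Mitochondrial tRNA-Phe was at -1.63 (SE 0.49; edgeR, adjusted p = 0.0675), mitochondrial tRNA-Trp at -0.0096 and tRNA-Tyr-GTA at -0.17 in that fit.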

How the data were processed

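Per the labels' protocols, small RNA libraries were built by Pandora-seq from TRIzol-extracted total RNA. The genome build is mm10, per the submitters' processing notes. Which aligner, tRNA reference or filters the authors used is not given in the sources used here. Deposited were raw read counts per sequence, with no normalization, and the authors' tRNA annotation of each sequence. Sample titles gave the group and the replicate number.

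Classes are the annotation's suffixes. The longest 5' and 3' fragments of each tRNA were joined, and members placed without gaps. Counts per sequence, per tRNA source and per source and class were fitted in edgeR 4.0.16 (R 4.3.3) with TMM scaling, filterByExpr, the quasi-likelihood F-test and Benjamini-Hochberg adjustment over all features (threshold 0.05). Each SE is the log2 change divided by the square root of F. DESeq2 1.42.0 and limma 3.58.1 (voom) were alternatives. Exact permutation and sign-flip tests were two-sided (SciPy 1.17.1, Python 3.11.15). Scripts were tested on simulated data. Figures used matplotlib 3.10.9. Reads carry no molecular identifiers, and with totals of 330787 to 2563749 counts, intervals cover counting error only.

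The members, the comparison tRNAs and the tests were chosen with earlier results of these data known. Fragments were named by a rule: the 2 most abundant of each class, those with the smallest p in each direction, and any past the adjusted threshold. It gave 18; all others were chosen after their values were seen.

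Across sequences, the 3 same-numbered pairs deviated from the group means with correlations of 0.77, 0.51 and 0.43, and the replicate block is given. Deviations within a group cancel out, so the libraries numbered 1 can by themselves raise all 3 values. Replicates 2 and 3 alone gave -0.02, so that a pairing of those libraries was not shown. Their pair ratios and the block fits without replicate 1 rest on the number in the sample title alone. The common dispersion over sequences was 0.706 with the groups alone and 0.213 with the block.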

Additional observations from a re-analysis of the deposited data

How the results depend on the processing

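Scaling, filter, tool, annotation, replicate block and libraries were varied; the block with DESeq2, limma voom or DESeq2 size factors was added after the data were seen. No call among the 63 tRNA-Phe and 105 tRNA-Trp fragments tested came from another scaling, filter or tool, and with the block edgeR called 0 from these tRNAs as well. DESeq2 gave no adjusted p for 6 tRNA-Phe and 5 tRNA-Trp fragments, and with the block for 26 and 51. The block did turn signs. The summed tRNA-Phe change of 0.21 became -0.53 in the block fit, -0.43 with DESeq2 and the block, -0.43 with DESeq2 size factors and the block, -0.32 with limma voom and the block, and -0.62 with limma voom alone. The internal tRNA-Phe change of 0.08 became, in the same order, -0.40, -0.36, -0.36, -0.27 and -0.41. For the tRNA-Phe fragment of positions 1 to 20 the change of 0.03 became -1.15, -1.22, -1.18, -0.88 and -1.37, with -0.0068 under DESeq2 size factors, -0.0075 with DESeq2 and -0.020 with no filter. For that of positions 42 to 73 the change of 1.11 became -0.26 in the block fit, -0.50 with DESeq2 and the block, -0.30 with DESeq2 size factors and the block, and -1.03 with limma voom. For the tRNA-Trp fragment of positions 1 to 18 the change of -0.08 became 0.089, 0.053, 0.054, 0.0014 and 0.11 in the order first given. The difference in the CCA share of tRNA-Phe became -3.12 points when sequences with further annotations were added. The cause of these turns was not tested.

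With single libraries or same-numbered pairs left out, 0 to 2 tRNA-Phe and 0 to 1 tRNA-Trp fragments were called, the most without replicate 1 in the block fit, which has 2 libraries a group. The log2 changes ran from -2.21 to 1.46 for summed tRNA-Phe, -3.40 to 1.05 for its 5' class, -2.20 to 1.58 for its internal class, -1.04 to 3.11 for its ends without the tail and -1.34 to 0.33 for its CCA ends. They ran from -0.19 to 0.18 for summed tRNA-Trp, -0.47 to 0.52 for its 5' class, -0.75 to 0.26 for its internal class and -1.53 to 1.81 for its 3' ends. Among tRNA-Phe fragments the range was -3.89 to 1.49 for positions 1 to 19, -3.15 to 1.199 for 1 to 20, -1.84 to 0.057 for 42 to 56, -4.22 to 5.29 for 42 to 71, -4.07 to 3.44 for 42 to 73, -2.28 to 3.31 for 39 to 73, -2.36 to 1.38 for 44 to 76, -1.72 to 1.91 for 42 to 76, -2.57 to -0.79 for 41 to 76 and 0.68 to 2.63 for 48 to 76. Among tRNA-Trp fragments it was -0.59 to 0.39 for positions 1 to 18, -0.24 to 0.60 for its C16T form, -1.50 to 1.81 for 56 to 71, -1.59 to 2.76 for 56 to 72 and -0.84 to 0.54 for 58 to 72. Nearly all of these extremes came from leaving out hypoxia replicate 1 or normoxia replicate 1. The log2 ratio of the 2 tRNAs ran from -1.97 to 0.44. In points, the CCA share of tRNA-Phe ran from -5.21 to 5.64, and for tRNA-Trp the 5' share ran from -16.2 to 25.1 and the share of 30 nt or longer from -3.32 to 7.30. Against the other nuclear tRNAs, with 5 libraries and a smallest possible p of 0.0625, no comparison can pass: the differences ran from -32.5 to -25.6 for the 5' class of tRNA-Phe, 15.5 to 19.5 for its CCA class and 10.4 to 12.2 for 30 nt or longer.

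Depth limits most single fragments: with 8254 or fewer tRNA-Phe counts a library, 543 of 606 sequences were too rare to test.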
